A study of Zea mays with 6 samples.

Results

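The dwarf genes described here are 9 maize genes of gibberellin and brassinosteroid growth control. They were taken by gene identifier, not by a rule on their values, from the 39283 genes of the deposited expression table. Earlier results of these data were known when they were chosen. The gibberellin genes are an1, d5, d1, d8 and d9, and the brassinosteroid genes are na2, na1, brd1 and bri1. Both hormones promote cell elongation, and loss of either in maize gives short plants with compact leaves. Gibberellin is made from a plastid diterpene by cyclases and then by oxidases, and it acts by removing DELLA proteins, which repress growth. Brassinosteroids are steroids made from plant sterols by reductases and cytochrome P450 enzymes, and they are sensed at the cell surface by the receptor kinase BRI1. The coleoptile, the sheath around the first leaves of a grass seedling, grows after germination mainly by cell elongation.

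RNA was sequenced from coleoptile tips of wild-type and fdl1-Mu seedlings, with 3 biological replicates in each group. All plants were of the W22 background and were grown at 28°C. According to the methods, tips were taken 3 days after germination and 5 tips were combined in each replicate. The tips were 3 to 4 mm long, and the mutant samples included tips that looked normal. FDL1 encodes a MYB transcription factor needed for the cuticle, and the mutant group rests on 1 allele, a Mutator transposon insertion. The methods name both homozygous and heterozygous fdl1-Mu plants without tying them to the groups.

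The table gives 1 FPKM value per gene and group (fragments per kilobase, scaled to sequencing depth), pooled over the replicates by the authors. No spread between replicates therefore stands beside any value, no test was made, and a difference is given only as its size. Depth is unknown. To read the sizes, each member was set beside the 21364 genes that reached 1 FPKM in wild type or fdl1-Mu and were above 0 in both. The log2 ratios of these genes, fdl1-Mu over wild type, had a median of 0.021 and a middle 90% from -0.60 to 0.97. FDL1 itself (GRMZM2G056407) stood at 4.58 FPKM in wild type, against 12.7 in the libraries labelled fdl1-Mu, so the targeted gene was higher in the libraries labelled as its mutant, and every direction below rests on those labels. The paper places the fdl1-Mu insertion inside an exon, in the part encoding the DNA-binding domain. An FPKM over the whole gene does not separate intact from interrupted transcripts. The higher FDL1 value therefore shows neither a working gene nor exchanged labels, and whether its transcripts were intact was not tested. None of the 9 genes lies on chromosome 7, where FDL1 is.

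Epidermal, leaf and seed genes were looked at as a check of the tissue. The epidermal genes ocl1, ocl4 and ocl5 were present in both groups, summing to 55.3 FPKM for wild type and 47.2 for fdl1-Mu. All 3 had lower values in fdl1-Mu, and ocl4, at 9.48 and 5.86, lay past 1.5-fold. The 11 genes of photosynthetic leaf summed to 41.4 FPKM for wild type and 64.8 for fdl1-Mu. Of the 7 that reached 1 FPKM in a group, 4 were at least 1.5-fold higher in fdl1-Mu and 1 was lower. Among the 21364 genes, 11.7% were higher and 5.33% lower by this limit. The most abundant were cab-m7, with 11.7 FPKM for wild type and 35.0 for fdl1-Mu, and ppdk1, with 16.2 and 7.43. The C4 genes me3 and pep1 were at 4.83 and 4.32 and at 0.025 and 0.060, and cab-m1 and cab48 were listed at 0. The 5 seed storage genes summed to 5.41 and 5.59. The part of leaf tissue or of epidermis in the differences below was not tested. In whole tips, fewer cells of a type and less RNA per cell cannot be told apart.

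Of the 9 dwarf genes, d1 was higher and brd1 lower by at least 1.5-fold in fdl1-Mu, and the other 7 lay within 1.5-fold. Across the 21364 genes, 17.0% lay past 1.5-fold, made up of 11.7% higher and 5.33% lower, so 2 of 9 is not far from what the table holds in general. Among the 13663 genes with a mean FPKM between 4 and 50, the level of 8 of the 9 members, 11.5% lay past 1.5-fold, 7.94% higher and 3.57% lower. This narrower background was added after seeing the data. No dwarf gene lay past 2-fold, and 5.97% of all genes did. By sign alone, 5 members were higher and 4 were lower in fdl1-Mu.

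**Figure D1:**
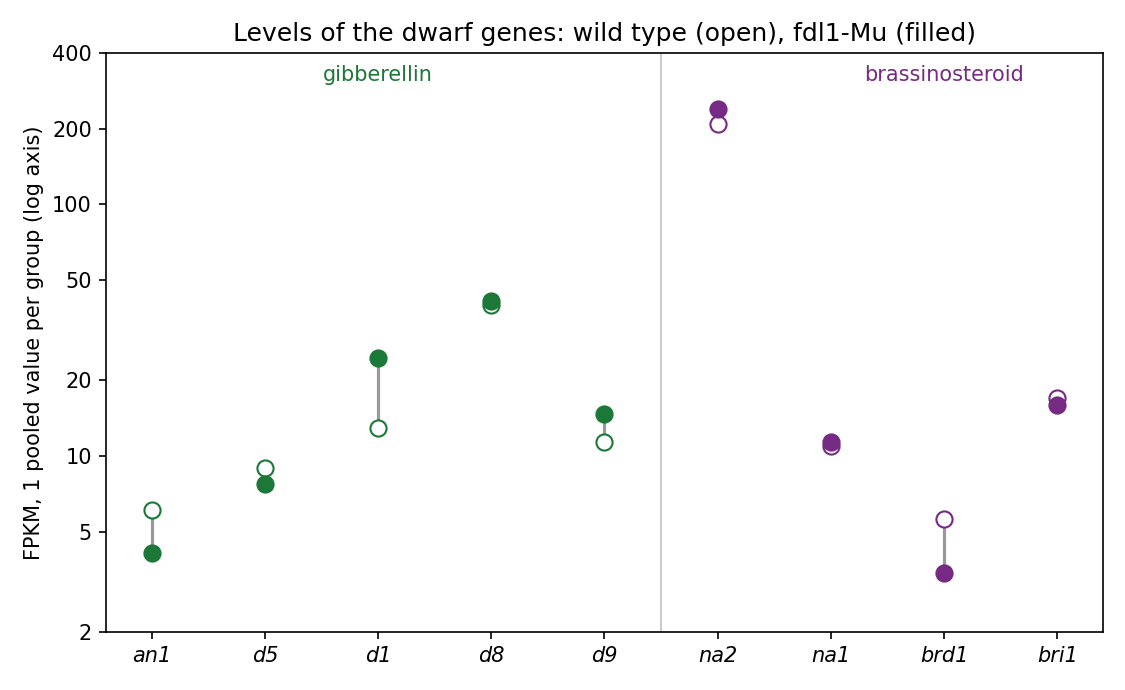
FPKM of the 9 dwarf genes on a log axis, with the pooled wild-type value as an open circle and the pooled fdl1-Mu value as a filled circle, green for gibberellin and purple for brassinosteroid. Circles stand clearly apart for d1 (12.9 and 24.5), an1 (6.08 and 4.13) and brd1 (5.64 and 3.44), and na2 lies above all others at 209 and 240.

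The levels of the 9 genes ran from 5.64 to 209 FPKM in wild type. The sterol reductase gene na2 stood far above the rest, at rank 489 of the table by wild-type FPKM and above 97.7% of the 21364 genes. After it came d8 at 39.9, bri1 at 16.9, d1 at 12.9, d9 at 11.4, na1 at 10.9, d5 at 8.94, an1 at 6.08 and brd1 at 5.64. The genes from bri1 to brd1 spanned a range around the median of all genes, which was 10.9 FPKM in wild type. In fdl1-Mu, d1 had moved above bri1, and d9 stood at 14.7, between bri1 at 15.9 and na1 at 11.4. With no spread known, no pair of neighbours in this order can be said to differ.

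Of the 3 gibberellin enzyme genes among the members, d1 was past 1.5-fold and an1 and d5 were not. The gene an1 (GRMZM2G081554, chromosome 1 of B73v3, 241277428 to 241285679) encodes ent-copalyl diphosphate synthase, the cyclase of the first committed step. Its wild-type FPKM was 6.08, against 4.13 in fdl1-Mu, which is 1.47-fold lower or -0.56 as a log2 ratio. This is just inside the 1.5-fold limit, and 5.94% of all genes had a ratio as low or lower. The gene d5 (GRMZM2G093603, chromosome 2, 10562532 to 10567539) encodes ent-kaurene synthase, which acts on the product of an1. The pooled FPKM values were 8.94 for wild type and 7.77 for fdl1-Mu, giving a log2 ratio of -0.20, and 25.7% of all genes had a ratio as low or lower.

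The gene d1 (GRMZM2G036340, chromosome 3, 10455337 to 10457618) encodes gibberellin 3-oxidase, which turns the inactive precursor into bioactive gibberellin. Wild type had 12.9 FPKM and fdl1-Mu 24.5, 1.90-fold higher, with a log2 ratio of 0.93. This was the largest difference among the 9 genes, and 5.48% of all genes had a ratio as high or higher. Because FPKM is per length, the enzymes can also be set against each other within a group. The level of d1 was 2.12 times that of an1 in wild type and 5.94 times in fdl1-Mu, and it was 1.44 times that of d5 in wild type and 3.15 times in fdl1-Mu. The level of an1 relative to d5 was 0.680 for wild type and 0.531 for fdl1-Mu.

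The DELLA genes stood close to their wild-type levels, with d9 the further from it. DELLA proteins are degraded when gibberellin binds its receptor, so their transcript level does not give the level of the protein. The gene d8 (GRMZM2G144744, chromosome 1, 266160101 to 266163168) stood at 39.9 FPKM in wild type and at 41.4 in fdl1-Mu, giving a log2 ratio of 0.05. Its duplicate d9 (GRMZM2G024973, chromosome 5, 11793473 to 11795945) had 11.4 and 14.7, a log2 ratio of 0.37, or 1.29-fold higher, and 19.9% of all genes had a ratio as high or higher. Transcripts of d8 were 3.51 times those of d9 in wild type and 2.82 times in fdl1-Mu. The sum of both genes was 51.3 and 56.1. How reads that could match both copies were assigned is not given in the sources used here.

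**Figure D2:**
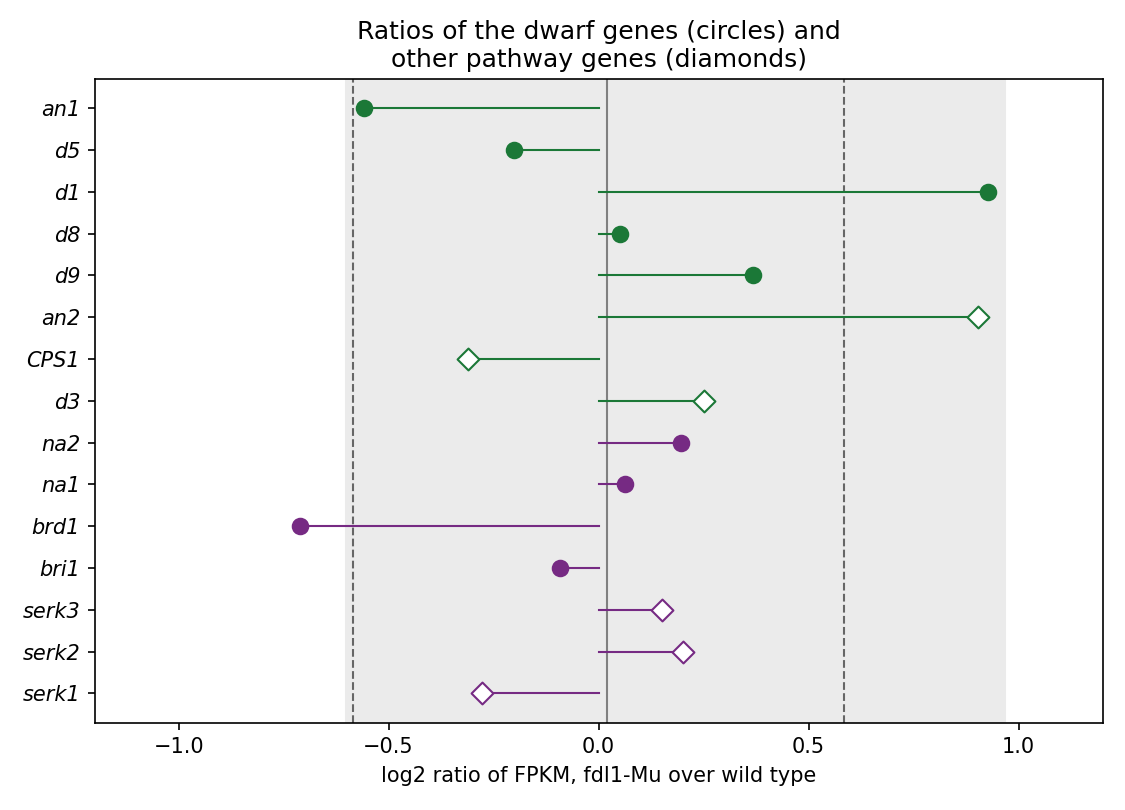
Log2 ratios of FPKM, fdl1-Mu over wild type, for the 9 dwarf genes (filled circles) and the 6 other pathway genes that reached 1 FPKM in wild type or fdl1-Mu (open diamonds), green for gibberellin and purple for brassinosteroid. The grey band is the middle 90% of the 21364 genes (-0.60 to 0.97), the grey line their median, and the dashed lines 1.5-fold; d1, an2 and brd1 lie past a dashed line, and brd1 is outside the band.

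Of the 3 brassinosteroid enzyme genes among the members, brd1 was past 1.5-fold and na2 and na1 were not. The gene na2 (GRMZM2G057000, chromosome 5, 65138723 to 65143833) encodes the maize counterpart of Arabidopsis DWF1, a sterol reductase that also serves bulk membrane sterols. Its values were 209 FPKM for wild type and 240 for fdl1-Mu, 1.15-fold higher, with a log2 ratio of 0.20. The gene na1 (GRMZM2G449033, chromosome 3, 179041147 to 179042863) encodes the counterpart of DET2, the steroid 5-alpha-reductase, and had 10.9 and 11.4, a log2 ratio of 0.06.

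The gene brd1 (GRMZM2G103773, chromosome 1, 249371977 to 249376239) encodes brassinosteroid C-6 oxidase, the cytochrome P450 that forms castasterone near the end of the route. Wild type had 5.64 FPKM and fdl1-Mu 3.44, 1.64-fold lower, with a log2 ratio of -0.71. A ratio as low or lower was found for 3.15% of all genes, and brd1 was the only one of the 9 genes outside the middle 90% of the 21364 genes. Among genes with a mean FPKM between 4 and 50, added after seeing the data, the middle 90% was narrower, from -0.53 to 0.75. By definition, 5% of those genes lie beyond each limit. Of the 8 members at that level, 3 lay outside this range, d1, an1 and brd1, with an1 close to the limit at -0.56. Adding a pseudocount of 1 to each value brought the ratio of brd1 to -0.58, just inside 1.5-fold. Within a group, na2 was 37.1 times brd1 in wild type and 69.6 times in fdl1-Mu, and na1 was 1.94 times brd1 in wild type and 3.32 times in fdl1-Mu. The ratio of na2 to na1 was 19.1 and 21.0.

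The receptor gene bri1 (GRMZM2G048294, chromosome 8, 154615633 to 154619705) stood at 16.9 FPKM in wild type and at 15.9 in fdl1-Mu, giving a log2 ratio of -0.09, and 37.2% of all genes had a ratio as low or lower. The 3 serk genes, whose Arabidopsis counterparts include co-receptors of BRI1, also lay within 1.5-fold. Their FPKM were 25.4 and 29.2 for serk2 (GRMZM2G115420), 23.6 and 26.2 for serk3 (GRMZM2G150024), and 5.61 and 4.63 for serk1 (GRMZM5G870959). The serk genes together with bri1 thus had log2 ratios between -0.28 and 0.20.

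Seen by hormone, the members of each went both ways. The 5 gibberellin genes had a median log2 ratio of 0.05 and a range from -0.56 to 0.93, and the 4 brassinosteroid genes had a median of -0.01 and a range from -0.71 to 0.20. Both medians lay near the 0.021 of all genes. The gibberellin median pools 3 enzyme genes, with a median of -0.20, and 2 DELLA genes, with a median of 0.21. The brassinosteroid median pools 3 enzyme genes, with a median of 0.06, and bri1 at -0.09. The ranges of both hormones overlapped from -0.56 to 0.20.

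**Figure D3:**
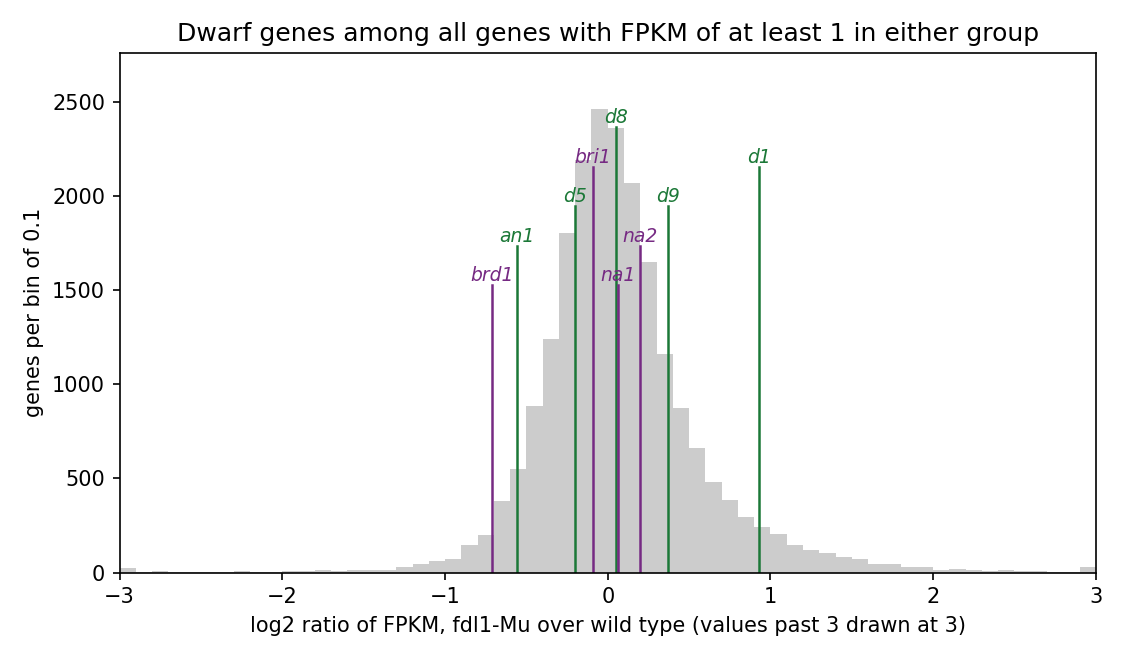
Number of genes per bin of 0.1 in log2 ratio (fdl1-Mu over wild type) for the 21364 background genes, with the 9 dwarf genes as labelled vertical lines, green for gibberellin and purple for brassinosteroid; line heights only separate the labels. Most members stand within the main peak, while d1 (0.93) stands on its right flank and brd1 (-0.71) and an1 (-0.56) on its left flank.

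Other genes were taken from the RefSeq gene table by names used in both routes, which gave 11 further identifiers, 5 for gibberellin and 6 for brassinosteroid. A matching name does not show that a gene acts in the hormone route. Genes without a matching symbol were missed, so neither route is covered in full. No gibberellin receptor gene, for example, was among the matches. Of the 11 identifiers, 6 reached 1 FPKM in wild type or fdl1-Mu. Among those 6, 1 was at least 1.5-fold higher in fdl1-Mu and 0 were lower, against 11.7% and 5.33% of the 21364 genes. The median log2 ratio of these 6 was 0.18. The higher gene was an2 (GRMZM2G044481), a second ent-copalyl diphosphate synthase gene known for diterpenoid defence compounds, at 5.33 FPKM in wild type against 9.97 in fdl1-Mu, or 1.87-fold higher. In wild type it stood below an1 at 6.08, and in fdl1-Mu above an1 at 4.13. The gene listed as CPS1 (GRMZM2G156565) had 8.62 and 6.94, a log2 ratio of -0.31.

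The gene d3 (GRMZM2G093195) encodes ent-kaurenoic acid oxidase, which acts between d5 and d1. Its values were 8.42 FPKM for wild type and 10.02 for fdl1-Mu, giving a log2 ratio of 0.25. A further gibberellin 3-oxidase gene, listed as ga3ox2 (GRMZM2G044358), was at 0 in both groups, so that d1 was the only gene of this enzyme with an FPKM above 0 among the identifiers matched.

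The brassinosteroid gene listed as Dwf4 (GRMZM2G065635), named for the C-22 hydroxylase of Arabidopsis, had a low level, 0.556 FPKM for wild type and 0.876 for fdl1-Mu. Both identifiers listed as CYP734A7, named for a brassinosteroid-inactivating P450 of tomato, were at 0 in both groups. The gene KSL4 (GRMZM2G016922), a kaurene synthase-like gene, had 0.278 and 0.544. Both genes lay under 1 FPKM in either group and are not counted above.

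No other gene of the table overlaps any of the 9 loci. The nearest listed genes, which were looked at after the values were seen, lay between 657 and 222681 bases away. The nearest to brd1, GRMZM2G103843, starts 2446 bases after its end and was also lower, 7.67 FPKM for wild type against 4.55 for fdl1-Mu, or 1.68-fold. Neighbours of other members went both ways. Those of d5, itself lower in fdl1-Mu, were both higher, from 0.631 to 1.04 and from 0.597 to 1.08 FPKM. Those of na1, itself higher, were both slightly higher. The gene GRMZM2G085577, which ends 826 bases before na1, was far more abundant than na1 and had 169.9 and 174.9. The genes on either side of d1 were at 0.119 or below in both groups, and the closer of them lies 59866 bases away. Whether reads from elsewhere were counted for d1 was not tested.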

How the data were processed

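The authors made stranded mRNA libraries, mapped reads to B73v3 with TopHat and ran Cuffdiff on wild type against mutant. The submitters' processing notes name Trimmomatic, TopHat2 2.1.1 and Cuffdiff. The annotation and the treatment of reads with several matches are not given in the sources used here. The deposited FPKM values are the authors' pooled value per group. The table's further columns hold the authors' own fold changes, test statistics, p-values and q-values, and were not used. Plants were W22, and B73 was the reference.

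Log2 ratios were computed without a pseudocount in Python 3.11.15 with numpy 2.4.6 and pandas 2.3.3, and plotted with matplotlib 3.10.9. Locus coordinates are given 1-based, 1 above the table's starts. Background genes reached 1 FPKM in wild type or mutant, and 18 of 21382 such genes were left out because they were listed at 0 in 1 group. The 1.5-fold limit is a size, not a test. The code for ratios and counts was tested on simulated data with set 2-fold changes and no noise, which checks its arithmetic only.

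All 9 members have an entry in the RefSeq gene table for assembly Zm-B73-REFERENCE-NAM-5.0, and only its names were taken. It lists brd1 as Dwarf2 and gives no symbol for d5 and bri1. Other pathway genes were matched by symbol. All are named, and 3 identifiers caught by shared names (bas1, SCL30) were left out. The members, lists and limits were chosen with earlier results of these data known. Alternatives were pseudocounts of 0.1 and 1, centring on the median gene, equal summed FPKM, limits of 1.25-fold and 2-fold, and other filters on low values. A background of genes with a mean FPKM between 4 and 50 was added after seeing the data.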

Additional observations from a re-analysis of the deposited data

How the results depend on the processing

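The sign of each of the 9 members was the same under both pseudocounts, centring on the median gene and equal summed FPKM. Of these 36 values, 35 moved by less than 0.1 on the log2 scale. The exception was brd1, whose log2 ratio was -0.58 with a pseudocount of 1. It then lay just inside 1.5-fold, so that 0 members were counted as lower. With a limit of 2-fold, 0 members were higher and 0 lower, and with the smaller fold limit 2 were higher (d1 and d9) and 2 lower (brd1 and an1). Of the other pathway genes, 0 were higher at 2-fold and 3 without a filter on low values, when KSL4 and Dwf4 joined an2. The share of all genes past the limit moved from 11.7% higher and 5.33% lower to 4.67% and 1.31% at 2-fold, and to 22.4% and 16.1% at the smaller limit. The share of lower genes was 2.88% with a pseudocount of 1, 3.46% among genes reaching 5 FPKM and 10.1% without a filter. Among genes with a mean FPKM between 4 and 50, added after seeing the data, 7.94% were higher and 3.57% lower. No paired analysis was possible because the table holds 1 pooled value per group, and for the same reason no replicate could be left out. Depth is unknown, so no counting error is given.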
